A study of Homo sapiens with 12 samples.

Results

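The HOX cluster genes are the 39 protein-coding genes whose GENCODE symbol is HOXA, HOXB, HOXC or HOXD followed by a number, among 59424 gene identifiers in the tables. They comprise 11 HOXA genes on chromosome 7 and 10 HOXB genes on chromosome 17. The others are 9 HOXC genes on chromosome 12 and 9 HOXD genes on chromosome 2. Membership was set by name, not by any measured value, though the set was chosen with earlier results of these data known. Their transcripts were measured by RNA sequencing in 2 prostate cancer cell lines in which GALNT7, an enzyme that adds sugars to proteins in the O-glycosylation pathway, had been lowered or raised. CWR22Rv1 cells carried a lentiviral control short hairpin RNA (shControl) or one against GALNT7 (GALNT7 KD). DU145 cells carried a lentiviral negative control open reading frame (OEControl) or the GALNT7 open reading frame (GALNT7 OE). Each of the 4 groups had 3 libraries that the labels call biological replicates. The study's methods describe stable lines made by lentiviral transduction, and whether the libraries of a group came from separate transductions is not given in the sources used here. An effect of GALNT7 and another difference between the transduced lines cannot be told apart.

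HOX genes encode transcription factors that bind DNA through a homeodomain and give cells their position along the head to tail axis of the embryo. In each cluster the genes lie in the order of their numbers, and low numbers act towards the head while high numbers act towards the tail. Genes of different clusters that share a number are paralogues and descend from a common ancestral gene. Many HOX proteins bind DNA together with TALE homeodomain cofactors of the PBX and MEIS families, and the clusters are held silent by Polycomb complexes and opened by the Trithorax (MLL) complexes. In the prostate, HOXB13 is the best known member: it marks the luminal epithelium of the gland.

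GALNT7, the targeted gene, tests the labels. Its normalised counts (reads divided by a size factor for each library) were 862, 1042 and 1093 in shControl and 481, 501 and 399.7 in GALNT7 KD, a log2 fold change of -1.11 (limma adjusted p = 0.0051). In DU145 they were 1051, 928 and 913 in OEControl and 1988, 2221 and 2334 in GALNT7 OE, a log2 fold change of 1.18 (limma adjusted p = 8.0e-05). The groups did not overlap in either line. The libraries held 18364512 to 22264533 reads in CWR22Rv1 and 21628718 to 24356910 in DU145. Of the defining luminal markers, KLK3 stood at a mean of 392 normalised counts in shControl, whereas in DU145 OEControl it was at 0. The 4 epithelial markers summed to 22416 to 22860 in shControl and 20827 to 21545 in GALNT7 KD, where EPCAM (log2 fold change -0.71) and KRT18 (-0.35) were called lower. They summed to 24152 to 25908 in OEControl and 22524 to 24878 in GALNT7 OE, where EPCAM was called higher (0.62) and CDH1 lower (-0.58). Among markers of other cells, CD3E was at 0 in both lines and PTPRC had a mean below 1. The 5 fibroblast markers summed to 265 to 355 in shControl and 676 to 795 in GALNT7 KD, where LUM was called higher. They summed to 291 to 423 in OEControl and 61.9 to 157 in GALNT7 OE, where COL1A1 was called lower. The 4 leukocyte markers summed to 2644 to 2842 in OEControl and 1015 to 1149.6 in GALNT7 OE, nearly all of it CD68. The part of these genes in the results on HOX genes was not tested.

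The members differ in bases within the part of the homeobox that encodes the DNA-recognition helix. A difference in bases need not change the protein. The stretches of 51 bases shown here are from GENCODE release 29 transcripts on GRCh38, in coding sequence, 5′ to 3′ on the strand of the gene. The capitals mark the 18 bases for the helix core that all 39 members encode. The set shown holds the paralogues numbered 13, the group of HOXB13. All of them lie in the last of 2 exons of their transcript: HOXA13 on the minus strand at chr7:27198228-27198278, HOXB13 on the minus strand at chr17:48726826-48726876, HOXC13 on the plus strand at chr12:53945164-53945214 and HOXD13 on the plus strand at chr2:176094647-176094697.
HOXA13: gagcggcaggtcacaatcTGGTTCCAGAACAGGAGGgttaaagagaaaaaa
HOXB13: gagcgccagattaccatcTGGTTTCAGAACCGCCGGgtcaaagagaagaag
HOXC13: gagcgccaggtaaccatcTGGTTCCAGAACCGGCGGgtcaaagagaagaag
HOXD13: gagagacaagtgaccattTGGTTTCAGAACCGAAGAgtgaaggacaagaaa

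Over the whole homeobox of 180 bases, HOXB13 shared 80.0% of its bases with HOXC13, 70.0% with HOXD13 and 69.4% with HOXA13. It shared 51.1% to 56.1% with HOXB3, HOXB5, HOXB8 and HOXD1. For 32 of the 39 members the closest homeobox belonged to a gene of the same number in another cluster. To see where reads could be split between records, every run of 31 bases in the annotated transcripts of a member was looked up in all other genes. For 11 members no run was shared, and for 11 members more than 10% were. The largest overlaps were with readthrough or second records of the same locus: 78.2% of HOXD4 and 62.0% of HOXD3 with AC009336.2, and 59.3% of HOXC5 with a second record also named HOXC5. HOXC4 shared 16.9% of its runs with HOXC6 and HOXC6 shared 12.8% of its runs with HOXC4, and HOXB6 shared 16.2% of its runs, mostly with HOXB3. The share was 0.844% for HOXB13, 0.994% for HOXB5, 0.586% for HOXB8, 1.49% for HOXD1 and 6.72% for HOXB3. The 11 members over 10% were HOXA4, HOXA9, HOXB4, HOXB6, HOXC4, HOXC5, HOXC6, HOXD3, HOXD4, HOXD10 and HOXD11. Their values are therefore uncertain as values of single genes. No read was assigned in any library to AC009336.2, or to AC004080.6, which shares runs with HOXA4.

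The HOX profile of the 2 lines differed in which gene led. In shControl CWR22Rv1 cells HOXB13 stood at 1723 ± 31 normalised counts per kilobase of exon (SD, n = 3) and made up 80.4% of the summed HOX level per kilobase. The next genes were HOXB7 at 69.8 ± 16.7, HOXC9 at 54.0 ± 11.4, HOXC13 at 41.3 ± 2.23, HOXA5 at 33.2 ± 1.89 and HOXC10 at 32.1 ± 12.9. The libraries of HOXB7 and HOXC9 overlapped, as did those of HOXA5 and HOXC10, so those pairs have no order. In OEControl DU145 cells HOXB13 made up 0.0607% of the summed level per kilobase, and no single gene dominated. HOXB9 at 323 ± 8.57 per kilobase and HOXB7 at 303 ± 16.8 were highest, with libraries that overlapped, and HOXC10 followed at 250.2 ± 12.8. HOXB6 stood at 150.1 ± 3.31 and HOXB5 at 114 ± 5.30. Each line has its own scaling, for which reason only the share of the HOX total, a ratio within each library, is set across them.

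**Figure D1:**
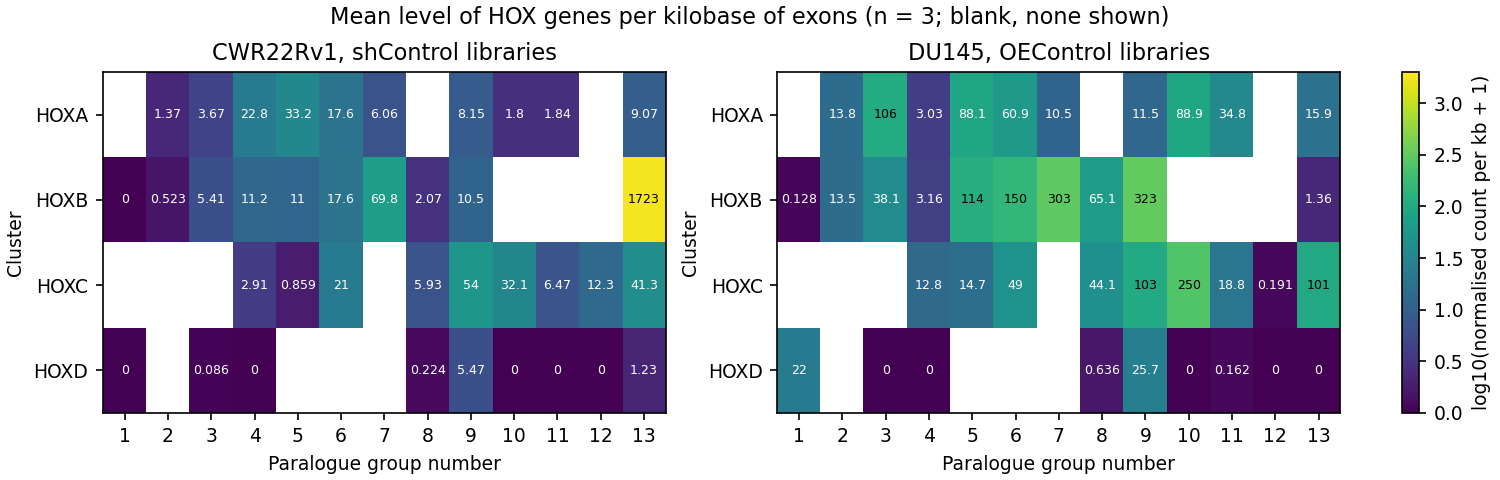
Mean level of 38 of the 39 HOX genes in the control libraries of the 2 cell lines, in normalised counts per kilobase of exon (numbers in the cells) and as log10 of that level plus 1 (colour), with clusters as rows and paralogue numbers as columns. In CWR22Rv1 the HOXB13 cell, at 1723, stands far above all others, whereas in DU145 the highest cells are HOXB9 at 323, HOXB7 at 303 and HOXC10 at 250.2, and most HOXD cells are dark in both lines.

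Most of the HOXD cluster was close to silent in both lines. In CWR22Rv1 only HOXD9 reached the mean of 5 normalised counts set for testing, and 3 HOXD genes had no read in any library. In DU145 HOXD1 and HOXD9 reached it, at 22.0 and 25.7 normalised counts per kilobase of exon in OEControl, and 5 HOXD genes had no read. A count of 0 allows for up to 3 reads, which is 2.65 to 3.2 normalised counts in CWR22Rv1 and 2.77 to 3.15 in DU145. HOXB1 was at 0 in CWR22Rv1 and had 1 library above 0 in DU145. In all, 26 members were tested in CWR22Rv1 and 29 in DU145, 24 of them in both lines, and 8 in neither.

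HOXB13 (ENSG00000159184, chr17:48724763-48729178, minus strand) was the highest HOX gene in every CWR22Rv1 library, with GALNT7 lowered or not. It had 6048, 5849.5 and 6019 normalised counts in shControl and 5633, 5401 and 5910.4 in GALNT7 KD. The groups overlapped, and the log2 fold change of -0.08 (95% interval -0.19 to 0.03) had a limma adjusted p of 0.322. Its share of the HOX level per kilobase ranged from 76.6% to 81.6% over the 6 libraries. In DU145 HOXB13 had 2.86, 11.2 and 0 normalised counts in OEControl and 0, 1.85 and 2.10 in GALNT7 OE, which was below the mean needed for a test.

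No HOX gene passed the test when GALNT7 was lowered in CWR22Rv1, where 9.06% of all 17906 genes tested did (5.28% higher, 3.79% lower). None of the 26 members tested had a limma adjusted p under 0.05, and edgeR and DESeq2 on the whole reads also called 0. At an unadjusted p under 0.05, limma gave 2 members, HOXC9 among them, edgeR gave 2 and DESeq2 gave 0. The members were split evenly, with 13 log2 fold changes above 0 and 13 below, and their median was -0.02 beside -0.01 for all genes tested. Most members were low in these cells, since 24 of the 26 had a mean below 100 normalised counts. In that range 4.59% of all genes were called, against 11.5% of genes with a mean of at least 100. The median standard error of the members was 0.298 on the log2 scale, beside 0.155 for all genes and 0.382 for all genes with a mean of 5 to 100. For 11 members the 95% interval of the log2 fold change stayed within 1 in either direction, and for 15 it reached beyond, so that a doubling or a halving lay inside it.

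**Figure D2:**
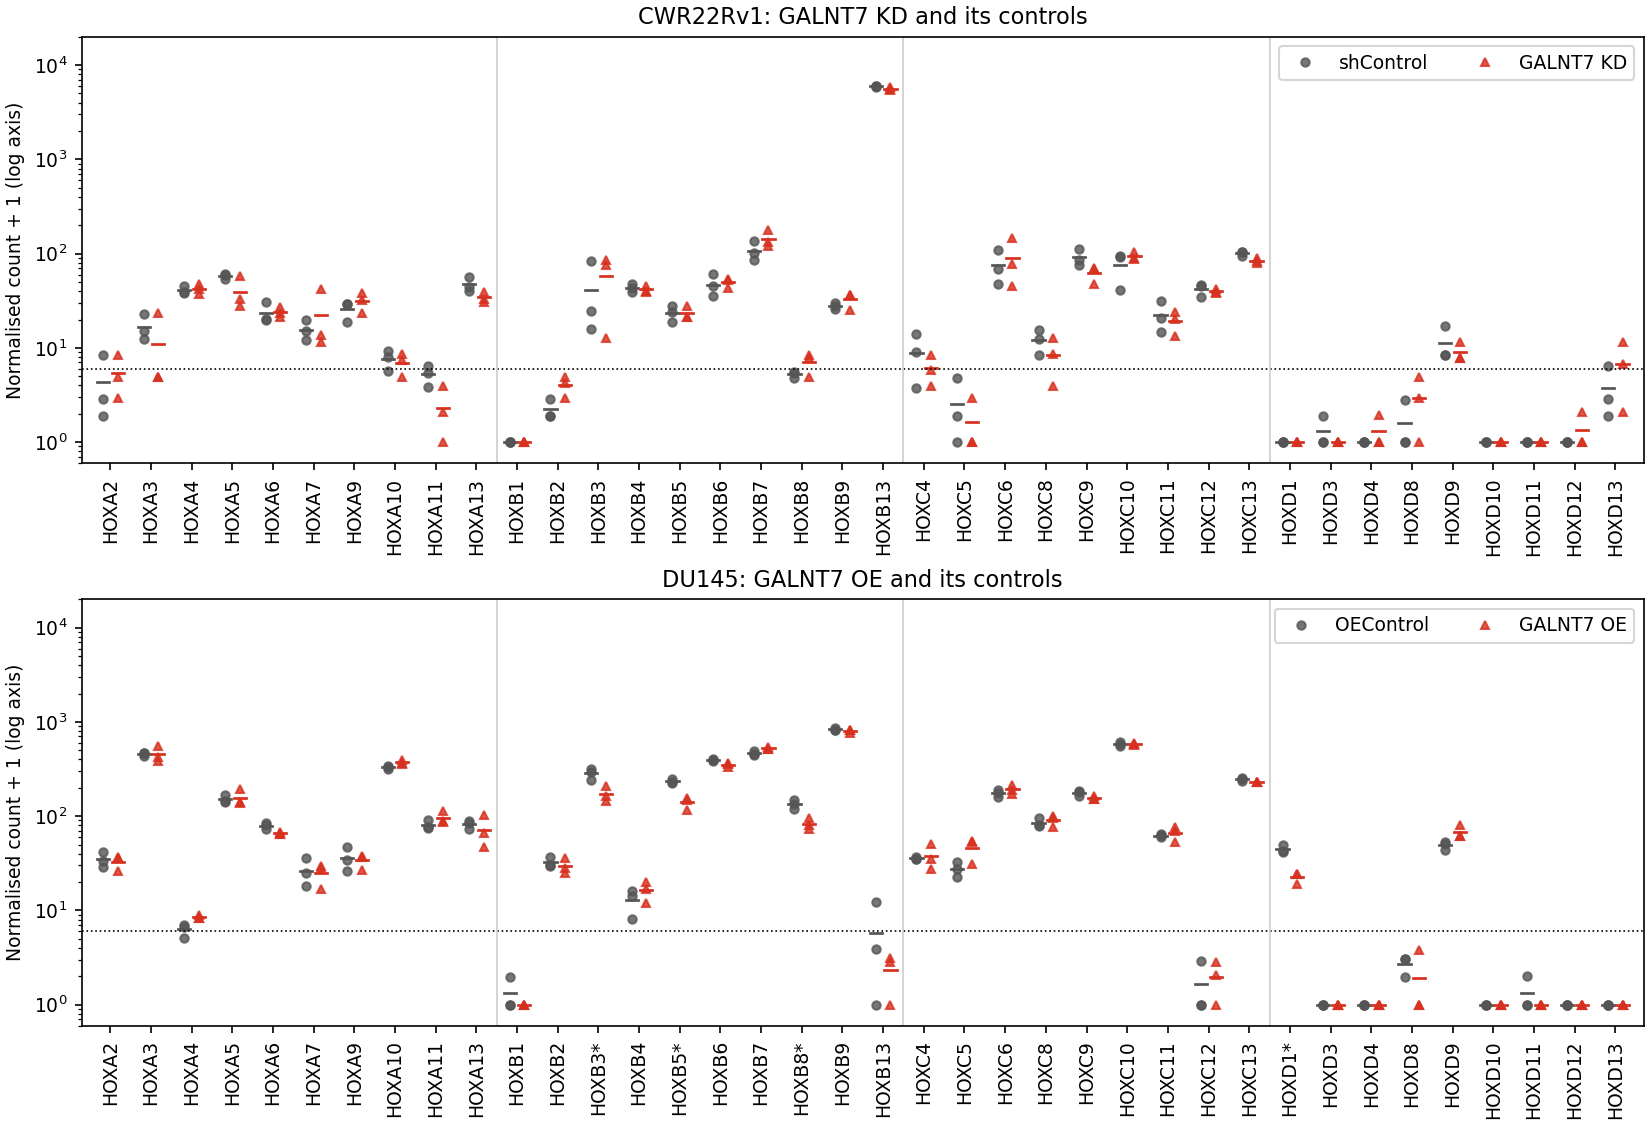
Normalised count plus 1 (log axis) of 38 of the 39 HOX genes in every library, CWR22Rv1 above and DU145 below, with control libraries as grey circles, GALNT7 KD or GALNT7 OE libraries as red triangles, short lines for the means of 3, a dotted line at the mean needed for a test, and an asterisk on genes past an adjusted p of 0.05. In CWR22Rv1 HOXB13 lies between 5401 and 6048 in all 6 libraries, and in DU145 the triangles of HOXB3, HOXB5, HOXB8 and HOXD1 lie below all circles.

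Among the 9 HOXA members tested in CWR22Rv1, 5 log2 fold changes were above 0 and 4 below, with a median of 0.04. HOXA3, a gene of the hindbrain and pharynx of the embryo, had the lowest value, with 14, 11.5 and 22 normalised counts in shControl and 3.87, 22.4 and 3.85 in GALNT7 KD. Here 1 GALNT7 KD library, replicate 2, was as high as the controls, and the log2 fold change of -0.99 had a standard error of 0.675 (limma adjusted p = 0.406). The same library was the high one for HOXA5 (27.1, 56.5 and 31.8 in GALNT7 KD, 57.9, 59.2 and 53.1 in shControl) and for HOXA7 (12.6, 41.6 and 10.6 in GALNT7 KD, 18.7, 14.1 and 11 in shControl). HOXA13, which shapes the digits and the genital tract in the embryo, had 39.2, 43.3 and 55.9 in shControl and 31.9, 29.9 and 38.5 in GALNT7 KD (log2 fold change -0.45, limma adjusted p = 0.26), with no overlap.

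The 8 HOXB members tested in CWR22Rv1 had a median log2 fold change of 0.17, with 6 above 0 and 2 below. HOXB7, the most abundant of them after HOXB13, had 84.0, 134 and 102 normalised counts in shControl and 132, 177 and 119 in GALNT7 KD (log2 fold change 0.43, limma adjusted p = 0.292), and the groups overlapped. HOXB3, a hindbrain gene that is also active in blood progenitors, spread most. Its counts were 82.1, 15 and 23.8 in shControl and 84.1, 11.7 and 75.1 in GALNT7 KD, so that replicate 2 was the lowest of each group. Its standard error of 0.889 was the highest of all members tested.

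In CWR22Rv1 the median of the HOXC cluster lay close to that of the chromosome around it. Single members ran from -0.65 to 0.40, with standard errors of 0.135 to 0.610. Of the 8 HOXC members tested, 6 had log2 fold changes below 0 and the median was -0.22. On chromosome 12 as a whole 767 of 922 genes (83.2%) were below 0, with a median of -0.28. The test called 202 genes of chromosome 12 lower (21.9%) and 19 higher. Genes within 1 Mb on either side were also counted, leaving out all genes that overlap the span of the cluster. Of 39 tested, 33 were below 0 with a median of -0.26, and 11 were called lower and 0 higher. HOXC9, a gene of the trunk that acts in motor neurons of the spinal cord, had 112, 84.9 and 75.1 normalised counts in shControl and 68.6, 68.3 and 46.2 in GALNT7 KD. The groups did not overlap, and the log2 fold change was -0.57 (95% interval -1.12 to -0.01, limma adjusted p = 0.186). HOXC13, active in hair and nails, had 103, 93.7 and 103 in shControl and 88.0, 83.2 and 78.0 in GALNT7 KD (log2 fold change -0.26, limma adjusted p = 0.271), again with no overlap. HOXC10, a gene of the lower trunk and hind limb, had 40.1, 90.2 and 94.3 in shControl and 103, 86.4 and 89.6 in GALNT7 KD, a log2 fold change of 0.40 (limma adjusted p = 0.497). In an alternative fit the log2 values of each library were first centred on their median for each chromosome. This centring used levels, not the median log2 fold change of -0.28. HOXC9 then stood at -0.36, HOXC13 at -0.05 and HOXC10 at 0.61, and none passed the test. HOXC11 then stood at 0.04 and HOXC12 at 0.15, from -0.17 and -0.06. Around the other clusters the median within 1 Mb was 0.02 for HOXA, 0.09 for HOXB and 0.12 for HOXD, with 10, 33 and 5 genes tested.

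**Figure D3:**
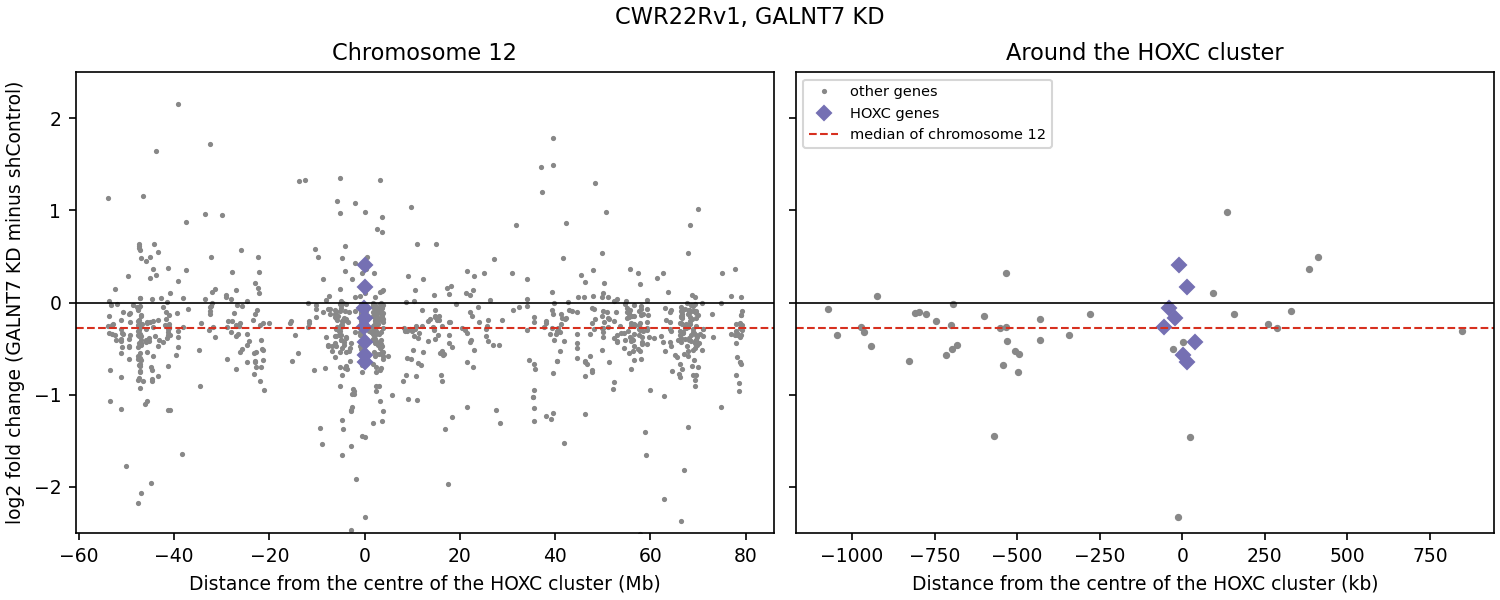
log2 fold change (GALNT7 KD minus shControl, CWR22Rv1) of genes on chromosome 12 against their distance from the centre of the HOXC cluster, for the whole chromosome in Mb (left, 909 genes drawn and 13 beyond the axis) and for the surroundings of the cluster in kb (right, 51 genes). Purple diamonds are the 8 HOXC genes tested, grey points are other genes, and the red dashed line is the chromosome median of -0.28, around which most points of both kinds lie.

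HOXC6 in CWR22Rv1 had 46.7, 109 and 67.8 normalised counts in shControl and 77.3, 144 and 44.3 in GALNT7 KD, so that the number 2 library was the highest of each group. Replicate 2 was thus the lowest library of each group for HOXB3 and the highest for HOXC6, and both genes had log2 fold changes whose sign depended on the libraries included (0.44 and 0.17 with all of them). HOXD9, the lone HOXD member tested in CWR22Rv1, had 7.47, 15.9 and 7.32 in shControl and 6.77, 10.7 and 6.74 in GALNT7 KD (log2 fold change -0.25, limma adjusted p = 0.758).

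In DU145, 4 HOX genes fell when GALNT7 was raised: HOXB3, HOXB5 and HOXB8 of the HOXB cluster, and HOXD1. No member rose. The 4 were 13.8% of the 29 members tested, where 43.5% of all 18705 genes tested passed (22.9% higher, 20.5% lower). Of all the calls 52.8% were higher, and 41.6% were when the libraries were scaled to their 75th percentile. Of the members, 15 had a mean below 100 normalised counts and 14 a mean of at least 100, with 1 and 3 called. Over all genes 21.8% passed in the lower range and 54.7% in the higher. The median log2 fold change of the members was -0.06, beside -0.01 for all genes tested, with 13 above 0 and 16 below. For 22 members the 95% interval stayed within 1 in either direction, and the median standard error was 0.166.

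HOXB5 (ENSG00000120075, chr17:48591257-48593961, minus strand), which acts in the developing lung and in the nerve cells of the gut, had 225, 227 and 245 normalised counts in OEControl and 154, 147 and 116 in GALNT7 OE. Every GALNT7 OE library lay below every control. The log2 fold change was -0.74 (standard error 0.137, limma adjusted p = 0.00462), a level that fell by 40.3%.

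HOXB3 (ENSG00000120093, chr17:48548870-48604912, minus strand) had 239, 319 and 294 normalised counts in OEControl and 205, 161 and 145 in GALNT7 OE. The groups did not overlap, and the gap between the nearest libraries was small beside the spread of the controls. The log2 fold change was -0.74 (standard error 0.172, limma adjusted p = 0.0124). The annotated span of HOXB3 overlaps those of HOXB4, HOXB5 and HOXB6, and it shares 5.33% of its 31-base runs with HOXB6.

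HOXB8 (ENSG00000120068, chr17:48611377-48614939, minus strand), known for holding myeloid progenitors in an immature state, had 134, 148 and 119 normalised counts in OEControl and 79.2, 71.2 and 94.4 in GALNT7 OE. Again the groups did not overlap. The log2 fold change was -0.71 (standard error 0.162, limma adjusted p = 0.0114), a level that fell by 38.8%.

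HOXD1 (ENSG00000128645, chr2:176188579-176190907, plus strand), the member with the lowest number in its cluster, had 41.0, 48.1 and 41.3 normalised counts in OEControl and 18, 23.1 and 23.1 in GALNT7 OE. All GALNT7 OE libraries lay far below the controls. With a log2 fold change of -0.99 it stood lowest of all members (standard error 0.211, limma adjusted p = 0.00847), and its level fell by 49.8%. On the opposite strand the exons of HAGLR and AC009336.3 cover 58.1% of its exons. HAGLR had 373, 238 and 310.3 in OEControl and 281, 249.5 and 308 in GALNT7 OE (log2 fold change -0.12, limma adjusted p = 0.625), and the library kit keeps the strand.

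**Figure D4:**
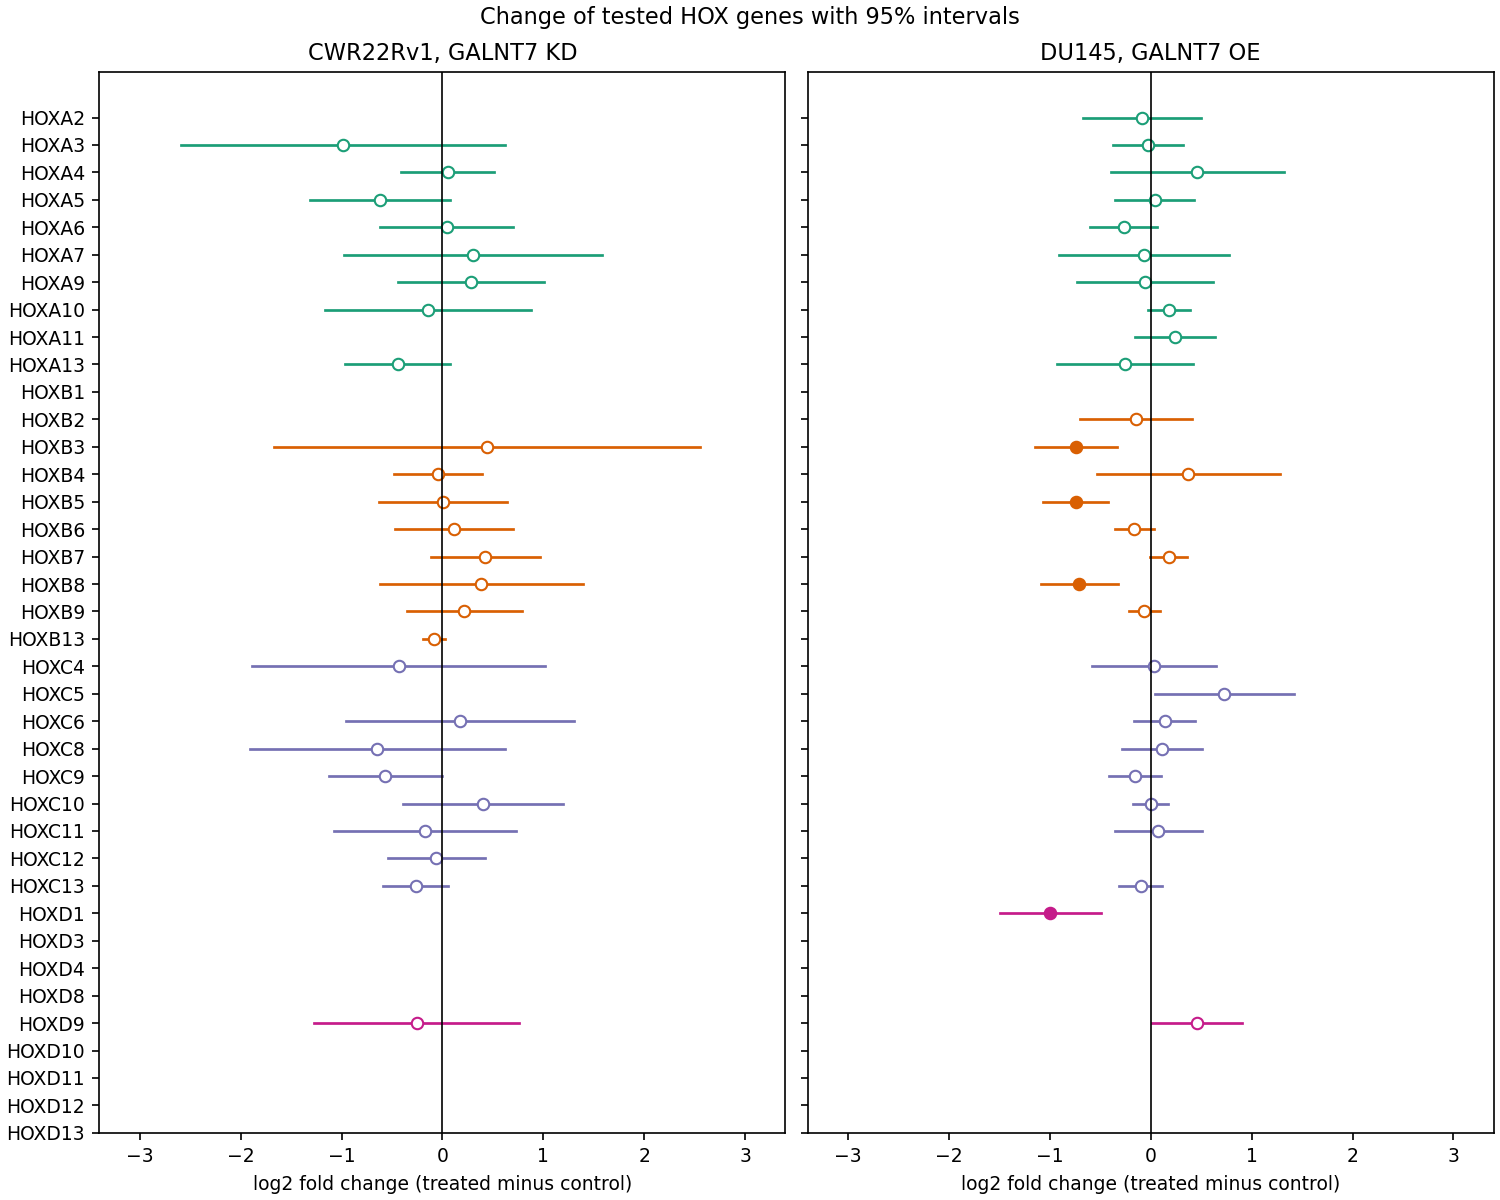
log2 fold change of the tested HOX genes with their 95% intervals, for GALNT7 KD against shControl in CWR22Rv1 (left) and GALNT7 OE against OEControl in DU145 (right), coloured by cluster, with filled circles for genes past a limma adjusted p of 0.05 and no mark for genes not tested; 1 tested member is not drawn. No circle is filled on the left; on the right HOXB3, HOXB5, HOXB8 and HOXD1 are filled, all between -0.71 and -0.99.

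None of the other HOXB genes passed the test in DU145, and they are interleaved along the chromosome with HOXB3, HOXB5 and HOXB8. HOXB9, with HOXB7 one of the most abundant HOX genes of these cells, had 860.0, 822 and 821 normalised counts in OEControl and 817, 762 and 818 in GALNT7 OE, a log2 fold change of -0.06 (95% interval -0.22 to 0.09). HOXB7 had 445, 493 and 453 in OEControl and 519, 514 and 540.2 in GALNT7 OE, higher in all 3 libraries, but its log2 fold change of 0.18 had a limma adjusted p of 0.105. HOXB6 had 382, 392 and 399 in OEControl and 331, 361 and 355 in GALNT7 OE, lower in all 3, with a log2 fold change of -0.16 and a limma adjusted p of 0.145. HOXB4, which lies inside the span of HOXB3, had 13.4, 7.16 and 15.1 against 16, 11.1 and 18.9 (log2 fold change 0.37, 95% interval -0.54 to 1.28). The sum over the HOXB cluster was 2387 ± 59.8 normalised counts in OEControl and 2109 ± 49.5 in GALNT7 OE (SD, n = 3 each). The lower sum rests on the 3 genes that fell and on smaller differences of HOXB6 and HOXB9. HOXB7 went the other way, from a mean of 464 in OEControl to 524 in GALNT7 OE, as did HOXB4. The sums were 1649.6 ± 40.2 and 1662 ± 61.6 for HOXA, 1382 ± 36.4 and 1398 ± 42.3 for HOXC, and 93.5 ± 7.35 and 89.0 ± 7.17 for HOXD, differences smaller than the spread between libraries. Within 1 Mb of the HOXB cluster, leaving out all genes that overlap its span, 39 genes were tested. Of these, 8 were called higher and 7 lower, with a median log2 fold change of -0.21. That of the 8 HOXB members tested was -0.155.

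**Figure D5:**
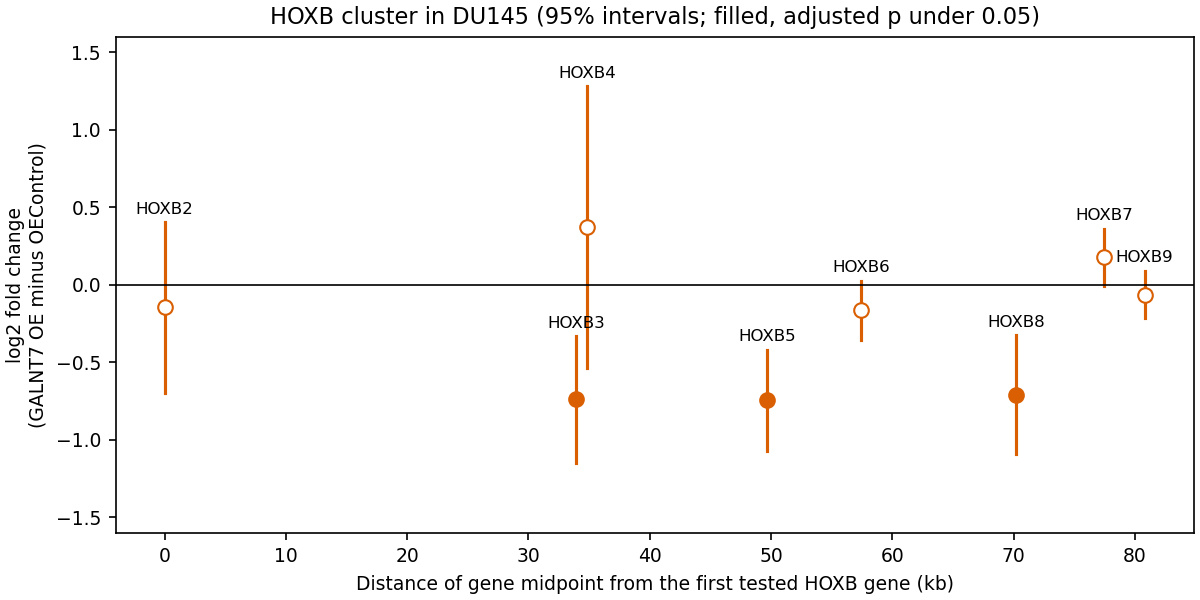
log2 fold change (GALNT7 OE minus OEControl, DU145) with 95% intervals of the 8 tested HOXB genes, placed by the distance of the gene midpoint from that of HOXB2 in kb. The filled circles of HOXB3, HOXB5 and HOXB8, between -0.71 and -0.74, alternate with open circles of HOXB4, HOXB6 and HOXB7, whose intervals cross 0.

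All 11 HOXA members were tested in DU145 and none passed. HOXA10, which patterns the uterus and the trunk, had 335, 315 and 339 normalised counts in OEControl and 357, 369 and 398 in GALNT7 OE, with no overlap (log2 fold change 0.18, limma adjusted p = 0.132). HOXA6 had 79.2, 82.8 and 72.5 in OEControl and 67.2, 63.8 and 62.9 in GALNT7 OE, with no overlap in the other direction (log2 fold change -0.27, limma adjusted p = 0.166).

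Of the 8 HOXC members tested in DU145 none passed, and the interval of HOXC10, the highest of them, was narrow. HOXC10 had 612, 586 and 552 normalised counts in OEControl and 588, 568 and 595 in GALNT7 OE, a log2 fold change of 0.00 (95% interval -0.17 to 0.18). HOXC5 had the highest value of all members, with 26.7, 21.5 and 31.2 in OEControl and 54.1, 51.7 and 30.4 in GALNT7 OE. Its replicate 3 of GALNT7 OE lay among the controls, and the log2 fold change of 0.73 had a limma adjusted p of 0.0818. The second record named HOXC5, to which HOXC5 gives 59.3% of its runs of bases, had 44.9, 33.7 and 10.1 in OEControl and 21.0, 15.7 and 43.0 in GALNT7 OE, so that reads may have been divided differently between the records in different libraries. HOXD9 had 52.5, 49.1 and 42.3 in OEControl and 79.2, 60.1 and 60.8 in GALNT7 OE, with no overlap (log2 fold change 0.46, limma adjusted p = 0.0878). HOXC5 and HOXD9 had an unadjusted p under 0.05, as did the 4 genes that fell. In all 12 members had groups that did not overlap, where 55.3% of all genes tested had. In CWR22Rv1 there were 4 such members, where 32.5% of all genes had.

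Of the 4 genes that fell in DU145, 3 were tested in CWR22Rv1 and none passed. HOXD1 had no read in any CWR22Rv1 library. HOXB5 had a log2 fold change of 0.01 there (95% interval -0.63 to 0.64), from 27.1, 17.7 and 22.9 normalised counts in shControl and 20.3, 20.3 and 27.0 in GALNT7 KD. HOXB8 was at 3.73, 4.42 and 4.58 in shControl and 6.77, 7.47 and 3.85 in GALNT7 KD, close to the limit of detection (log2 fold change 0.39, 95% interval -0.62 to 1.39). HOXB3 had a log2 fold change of 0.44 there (95% interval -1.67 to 2.55). Of the 24 members tested in both lines, 16 lay on opposite sides of 0 in the 2 lines and 8 on the same side, which for mostly small values is a count only. Whether the response differed between the lines was not tested.

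HOX proteins bind DNA with TALE cofactors, of which 8 of 9 were tested in each line. In CWR22Rv1 1 was called lower, which is 12.5% called where 9.06% of all genes were, and that call was lost in 11 of 18 alternatives. In DU145 2 rose and 1 fell, which is 37.5% called where 43.5% of all genes were. PBX3, a direct partner of HOX proteins on DNA, rose in DU145 from 1207, 1257 and 1308 to 1502, 1617 and 1695 (log2 fold change 0.35, limma adjusted p = 0.0054), and had a log2 fold change of -0.60 in CWR22Rv1 (limma adjusted p = 0.0578). MEIS3 fell in DU145 from 290.2, 281 and 287 to 172, 206 and 175 (log2 fold change -0.63, limma adjusted p = 0.0032). Whether these changes of PBX3 and MEIS3 had a part in the fall of HOXB3, HOXB5, HOXB8 and HOXD1 was not tested.

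Of the 17 antisense and long noncoding RNAs of the clusters, 5 were tested in CWR22Rv1 and none passed, and of 12 tested in DU145 3 fell and none rose. That is 25% called, where 43.5% of all genes were called and 20.5% were called lower. HOXA-AS2, transcribed from the strand opposite HOXA3 and HOXA4, had 281, 304 and 281 normalised counts in OEControl and 160.4, 175 and 195 in GALNT7 OE (log2 fold change -0.71, limma adjusted p = 0.00228). HOXC-AS1 had 95.4, 98.2 and 89.7 in OEControl and 67.2, 59.1 and 48.2 in GALNT7 OE (log2 fold change -0.70, limma adjusted p = 0.0145), and its adjusted p was 0.0521 without OEControl replicate 2 and 0.0699 after quantile normalisation. HOTAIRM1, a long noncoding RNA of the HOXA cluster, had 388, 295 and 221 in OEControl and 114, 91.5 and 224 in GALNT7 OE. The groups overlapped through GALNT7 OE replicate 3, and its log2 fold change of -1.13 (limma adjusted p = 0.0386) was lost in 8 of 18 alternatives. These were edgeR, eBayes without trend, centring on chromosomes, the replicate block and leaving out replicate 1 or 2 of either group, with adjusted p from 0.0513 to 0.117. Protein-coding neighbours of HOXA-AS2 and HOXC-AS1 did not pass the test: HOXA3 had a log2 fold change of -0.03 and HOXA4 of 0.46, and HOXC8 and HOXC9 of 0.11 and -0.16. HOTAIR, the long noncoding RNA of the HOXC cluster, had 101, 165 and 113 in OEControl and 98.2, 78.5 and 113 in GALNT7 OE (log2 fold change -0.37, limma adjusted p = 0.241). Of the 15 homeobox genes next or sister to the clusters, 4 were tested in CWR22Rv1 and 5 in DU145, and none passed.

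The chromatin regulators of the clusters were all tested, 18 in each line. In DU145 9 rose and none fell, which is 50% called where 43.5% of all genes were. Of the 18, 17 had a mean of at least 100 normalised counts, a range in which 54.7% of all genes were called, and all 9 calls were among them. The list's median log2 fold change was 0.41 beside -0.01 for all genes. They included 3 subunits of Polycomb repressive complex 2, which silences HOX clusters. EZH2, its catalytic subunit, rose from 906, 923 and 867 to 1555, 1676 and 1853 (log2 fold change 0.91, limma adjusted p = 1.6e-04). EED had a log2 fold change of 0.43 and SUZ12 of 0.48. EZH1, also on the list, went the other way but was not called. It had 1508, 1168 and 1254 in OEControl and 937, 1137 and 1068 in GALNT7 OE, with no overlap (log2 fold change -0.32, limma adjusted p = 0.0633). Of the 18 log2 fold changes, 15 were above 0 and 3 below. Of Polycomb repressive complex 1, BMI1 rose by a log2 fold change of 0.64 and RNF2 by 0.52. The others were ASH2L (0.53) and WDR5 (0.30), core subunits of the MLL complexes, DOT1L (0.59), a histone methyltransferase that marks active HOX genes, and CTCF (0.41), which insulates domains of the clusters. WDR5 did not pass in 4 of 18 alternatives, 2 of which left out OEControl replicate 1 or 3, and ASH2L did not pass after centring on chromosomes. In CWR22Rv1 1 of the 18 was called (5.56%, where 9.06% of all genes were): BMI1 fell from 1319.8, 1512 and 1058 normalised counts in shControl to 655, 731 and 629 in GALNT7 KD (log2 fold change -0.94, limma adjusted p = 0.0114). Its adjusted p was 0.0550 without GALNT7 KD replicate 1 and 0.0539 without shControl replicate 1. GMNN, which encodes geminin, an inhibitor of DNA replication licensing that also binds HOX proteins, rose in DU145 from 495, 499 and 468 to 882, 960.1 and 1093 (log2 fold change 1.00, limma adjusted p = 2.3e-04), and had a log2 fold change of 0.05 in CWR22Rv1 (limma adjusted p = 0.728).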

How the data were processed

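Polyadenylated RNA was sequenced with a stranded kit in 12 libraries. The authors deposited normalised counts, a signal of whole reads divided by a size factor for each library, for 59424 Ensembl genes in 2 tables, 1 for each cell line. Per the labels the processing used Salmon, FastQC, DESeq2, R 3.5.3 and hg38, and other versions are not given in the sources used here. Because the values are scaled, lmFit and eBayes with a trend (limma 3.58.1, R 4.3.3) were run on log2(normalised count + 1) for all genes with a mean of at least 5 over the 6 libraries of a line, with Benjamini-Hochberg adjustment over all genes tested and a threshold of 0.05. On this scale low genes show too small a fold change. Whole reads were recovered for edgeR 4.0.16 and DESeq2 1.42.0, run as alternatives. Replicates differed by more than sampling noise (chi-square per gene 8.85 to 24.2), and p-values measure only the spread between these libraries. Intervals cover 95%, and floors cover counting error only.

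GENCODE release 29 gave genes, exons and positions for all 39 members and for 94.4% of the identifiers. All members past the threshold are named, HOXB13 and GALNT7 in any case, and members of the other lists past the threshold, except for a few items that are not reported here. Other HOX genes were named after their values were seen, as the highest, the lowest, those with groups that did not overlap, or neighbours of a gene that changed. MEIS, PBX, EZH1, HAGLR and HOTAIR values below the threshold were likewise added. The members and lists were chosen with earlier results of these data known. Alternatives were other pseudocounts, filters, scalings, centring on chromosomes, a replicate block and each library left out. The tests were tried on simulated data. Changes were set there only in genes with a mean of at least 100, with a spread not taken from these libraries. The trial does not show how well changes of lower members are found.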

Additional observations from a re-analysis of the deposited data

How the results depend on the processing

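Each comparison was repeated under 18 alternatives, 6 of which left out 1 library. In DU145 the same 4 members, HOXB3, HOXB5, HOXB8 and HOXD1, passed and were lower in all 18, and the count ranged from 4 to 6. Further members passed singly: HOXB6 after 75th percentile scaling, HOXB7 after centring on chromosomes, HOXA6 with eBayes without trend, HOXC5 and HOXD9 after quantile normalisation, and HOXC5 without GALNT7 OE replicate 3. In CWR22Rv1 the count stayed at 0 except with eBayes without trend, which called 1. GALNT7 kept its direction and passed in all 18 in both lines. With the replicate block the counts were 0 and 4; same-numbered replicates deviated together with correlations of -0.011 to 0.0747, so the numbers were not taken as pairs, and the block cost the call of HOTAIRM1 in DU145 (adjusted p = 0.0691). Over all genes the number called in CWR22Rv1 was 1623, with 2666 by DESeq2, 996 without trend, 1002 with the block and 525 to 1332 with a library left out. Alternatives that tested fewer genes gave no value for some low members.

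Of the members tested, 12 of 26 in CWR22Rv1 and 11 of 29 in DU145 changed sign under some alternative. They were all members that did not pass, and none had a log2 fold change over 0.44 or 0.259 in size. In CWR22Rv1 HOXB5 stood at -0.015 after 75th percentile scaling, -0.0023 by DESeq2, -0.0057 by edgeR and -0.064 after centring on chromosomes. That centring put HOXC11 at 0.039 and HOXC12 at 0.15, and quantile normalisation put HOXA10 at 0.0063, HOXB4 at 0.026 and HOXC12 at 0.0101. With a library left out, HOXA4 ranged from -0.034 to 0.14, HOXA6 from -0.075 to 0.25, HOXA7 from -0.29 to 0.65, HOXA10 from -0.35 to 0.097, HOXB3 from -0.061 to 1.33, HOXB4 from -0.12 to 0.027, HOXB5 from -0.15 to 0.14, HOXB6 from -0.069 to 0.32, HOXC6 from -0.26 to 0.58, HOXC11 from -0.43 to 0.11, HOXC12 from -0.20 to 0.011 and HOXD9 from -0.45 to 0.082.

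In DU145 75th percentile scaling put HOXA5 at -0.0599, HOXC4 at -0.064, HOXC10 at -0.097 and HOXC11 at -0.021. Centring on chromosomes put HOXA3 at 0.047, HOXA7 at 0.0081, HOXA9 at 0.016, HOXB9 at 0.079, HOXC4 at -0.056, HOXC10 at -0.087 and HOXC11 at -0.012. Quantile normalisation put HOXA2 at 0.22, HOXA7 at 0.26, HOXA9 at 0.26, HOXA13 at 0.00697, HOXB2 at 0.17 and HOXC10 at -0.054, and HOXC10 was at -0.0061 by DESeq2 and -0.00204 by edgeR. With a library left out, HOXA2 ranged from -0.21 to 0.0700, HOXA3 from -0.19 to 0.0897, HOXA5 from -0.11 to 0.12, HOXA7 from -0.31 to 0.19, HOXA9 from -0.26 to 0.16, HOXA13 from -0.55 to 0.0078, HOXC4 from -0.20 to 0.23, HOXC10 from -0.037 to 0.037 and HOXC11 from -0.031 to 0.22. The cause of these changes was not tested. In CWR22Rv1 24 of the 26 members tested had a mean below 100 normalised counts, and the part of depth and that of the spread between libraries in their wide intervals were not told apart.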
